A study of Mus musculus with 3 samples.

Results

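The nuclear genes of oxidative phosphorylation were followed in polyadenylated RNA of mouse regulatory T cells. They were chosen by symbol: genes with a protein-coding transcript whose names start with Ndufa, Ndufb, Ndufc, Ndufs or Ndufv, with Uqcr, with Cox4 to Cox8 or with Atp5, together with Sdha to Sdhd. This gave 94 gene identifiers under 93 symbols, out of 55536 mouse genes in the deposited gene table, of which 22028 are protein-coding. By role, 44 belong to complex I, 4 to complex II, 8 to complex III, 20 to complex IV and 18 to complex V. The names also took in the 8 complex I assembly factors Ndufaf1 to Ndufaf8, which are not part of the finished enzyme, Atp5s, which is named for ATP synthase but is no subunit of it, and a second Atp5o identifier, an overlapping locus at 0 in every library. Ndufa4 and Ndufa4l2 were counted with complex IV, where Ndufa4 is now placed.

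The cells were primary regulatory T cells of an adult male mouse, 4 months old, with a Foxp3CreERT2 allele and a Rosa26YFP reporter, and per the labels of hematopoietic origin from bone marrow. All 3 libraries are technical replicates of 1 biological sample and carry both alleles, so the data hold no untreated or wild-type control and no comparison of conditions. Libraries are named by their technical replicate number. The labels do not say whether they came from 1 RNA pool or from separate sorts.

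Oxidative phosphorylation passes electrons from NADH and succinate through complexes I to IV of the inner mitochondrial membrane to oxygen. Complexes I, III and IV pump protons, and complex V, the ATP synthase, makes ATP as protons flow back. A few subunits, the catalytic core of complex IV among them, are encoded by mitochondrial DNA, and all others are nuclear, made in the cytosol and imported. In regulatory T cells, respiratory chain activity is known to be needed for suppressive function.

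Gene totals were 9299054, 9188612 and 8284381 expected counts (fractional read counts per gene) in libraries 1, 2 and 3. The 6 regulatory T cell markers and the 5 T cell markers were all at 1 TPM or more in every library (TPM, a level per transcript length, scaled to 1 common total in every library), with summed levels of 2920.0 to 3156 and 6341 to 6948 TPM. Foxp3, with 27.6, 43.7 and 47.1 TPM, Il2ra, with 211, 332 and 369 TPM, and Cd4, with 360.5, 511 and 492 TPM, were lowest in library 1. Ctla4, Ikzf2 and Lck were also lowest there. Other markers of these lists ran the other way. Tnfrsf18, with 760.9, 649.55 and 655.1 TPM, Cd3d, with 514.7, 429.4 and 400.4 TPM, and Trac, with 3154, 2844 and 2579 TPM, were highest in library 1. Izumo1r and Cd3e lay between. Markers of other blood cells were also present and set libraries apart. The 6 erythroid markers summed to 1685 TPM in library 1 and 1497 in library 3, against 9.02 in library 2, and the 5 plasma cell markers to 1970.1, 1323 and 244 TPM in the same order, nearly all of it Igkc. Among the plasma cell markers Xbp1 ran otherwise, with 8.2 TPM in library 1, 26.0 in library 3 and 30.7 in library 2, and Sdc1 stayed under 1 TPM. The 6 B cell markers summed to 1467, 1095 and 1712 TPM in libraries 1, 2 and 3, and the 3 macrophage markers to 19.5, 12.99 and 30.2 TPM. The 3 muscle markers summed to 0.06 TPM or less in every library, with Myh7 and Acta1 at 0. The 3 progenitor markers summed to at most 1.61 TPM, with Gata2 at 0, and the 2 CD8 T cell markers to 15.97 to 21.4 TPM. The 3 neutrophil markers summed to 16.4 TPM in library 1, 0 in library 2 and 2.44 in library 3. The part of these differences between libraries in the levels below was not tested.

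The sequences of 2 kinds carry points made below, and the first is the promoter. Windows of 250 bases before to 50 after the start were taken from RefSeq (GRCm38.p6) for 76 of the 93 symbols, 2 of them matched by an older symbol. Both strands were searched for letters bound by NRF1 (CGCNTGCG), by GABP and other ETS factors (CCGGAAG), by YY1 (AANATGGCG) and by SP1 (GGGCGG), and for the TATA box (TATAAA). Shown are the 2 members with the highest level that hold both NRF1 and ETS letters, and the highest one that also holds YY1 letters. Atp5h lies at chr11:115419870-115420169, Cox6a1 at chr5:115348909-115349208 and Atp5j at chr16:84834927-84835226, all on the minus strand, and each window is read 5′ to 3′ along its gene. Capitals mark NRF1, ETS and YY1 letters on either strand.
Atp5h: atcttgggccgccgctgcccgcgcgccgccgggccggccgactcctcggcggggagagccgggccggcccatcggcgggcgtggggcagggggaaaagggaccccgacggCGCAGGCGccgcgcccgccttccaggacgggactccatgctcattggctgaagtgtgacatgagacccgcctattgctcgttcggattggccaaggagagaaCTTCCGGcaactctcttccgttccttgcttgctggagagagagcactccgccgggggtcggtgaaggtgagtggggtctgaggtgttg
Cox6a1: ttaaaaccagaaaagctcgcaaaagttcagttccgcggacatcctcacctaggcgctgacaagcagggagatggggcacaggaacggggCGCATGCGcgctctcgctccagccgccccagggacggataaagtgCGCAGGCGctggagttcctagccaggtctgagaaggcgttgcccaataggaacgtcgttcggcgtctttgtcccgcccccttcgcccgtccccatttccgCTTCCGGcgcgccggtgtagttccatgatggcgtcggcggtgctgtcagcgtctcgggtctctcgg
Atp5j: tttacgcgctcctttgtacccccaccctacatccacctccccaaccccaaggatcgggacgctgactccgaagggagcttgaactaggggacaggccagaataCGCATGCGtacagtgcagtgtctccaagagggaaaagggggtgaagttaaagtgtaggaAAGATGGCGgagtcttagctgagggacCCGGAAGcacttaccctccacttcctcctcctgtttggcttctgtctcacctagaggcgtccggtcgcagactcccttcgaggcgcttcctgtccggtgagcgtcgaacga

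NRF1 letters stood in 28 of 76 member windows (36.8%), against 12.5% of 17492 protein-coding genes with windows. ETS letters stood in 18 (23.7%, against 12.9%) and YY1 letters in 11 (14.5%, against 3.64%). Both NRF1 and ETS letters were present for 7 members (9.21%, against 2.62%). SP1 letters, in 46.1% of member windows against 49.2%, and the TATA box, in 9.21% against 14.8%, were no more frequent. The YY1 letters contain ATGGCG, and in 8 of the 11 windows a match lay after the start. A match describes letters only, and windows per gene averaged 1.07 for members and 1.22 for all. Detected members made up 72 of the 76, while the 17492 genes were taken whether detected or not.

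In Atp5h the NRF1 letters began 140 bases before the start and the ETS letters 38 bases before it. In Cox6a1 NRF1 letters began 161 and 116 bases before the start and ETS letters 16 bases before it. Atp5j held NRF1, YY1 and ETS letters at 147, 88 and 61 bases before the start. The factors' own genes were expressed at moderate levels, with 67.1, 81.6 and 85.9 TPM for Nrf1 and 10.8, 10.03 and 13.2 TPM for Yy1 in libraries 1, 2 and 3. Gabpa, the DNA-binding part of GABP, had 8.91, 14.3 and 14.3 TPM.

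The second sequence is the coding end of subunit c, the membrane ring that turns as protons pass through complex V. In mouse, 3 nuclear genes encode it: Atp5g1, Atp5g2 and Atp5g3. Their precursors of 136, 146 and 141 residues, translated from the leading coding transcripts of the GENCODE M21 annotation, share an identical end of 78 residues, while whole precursors were identical at 71.6% to 77.9% of aligned residues. In mm10 this end is encoded within chr11:96073107-96073644 for Atp5g1, chr15:102663017-102665175 for Atp5g2 and chr2:73908596-73909305 for Atp5g3, all on the minus strand. Its 234 coding bases, spliced and without the stop codon, are shown 5′ to 3′ to compare the genes, and capitals mark the 63 positions at which the genes differ.
Atp5g1: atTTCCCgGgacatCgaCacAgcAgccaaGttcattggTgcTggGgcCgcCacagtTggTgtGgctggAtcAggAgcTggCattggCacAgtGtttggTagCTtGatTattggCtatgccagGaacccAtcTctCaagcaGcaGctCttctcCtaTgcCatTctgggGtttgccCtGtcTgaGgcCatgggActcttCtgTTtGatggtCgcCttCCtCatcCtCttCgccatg
Atp5g2: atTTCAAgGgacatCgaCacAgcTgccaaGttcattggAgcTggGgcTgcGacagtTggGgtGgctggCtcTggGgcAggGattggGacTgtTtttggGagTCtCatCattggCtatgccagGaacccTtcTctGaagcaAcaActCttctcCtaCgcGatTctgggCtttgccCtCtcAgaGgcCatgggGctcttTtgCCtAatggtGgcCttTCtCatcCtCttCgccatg
Atp5g3: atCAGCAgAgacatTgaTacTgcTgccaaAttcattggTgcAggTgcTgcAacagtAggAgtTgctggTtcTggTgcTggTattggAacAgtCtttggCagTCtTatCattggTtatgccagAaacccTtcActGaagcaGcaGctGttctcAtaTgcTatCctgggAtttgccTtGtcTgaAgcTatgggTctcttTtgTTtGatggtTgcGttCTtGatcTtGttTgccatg

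Of the 63 differing positions, 55 were the third base of their codon. Atp5g1 and Atp5g2 matched at 84.6% of these bases, Atp5g1 and Atp5g3 at 78.6%, and Atp5g2 and Atp5g3 at 77.4%. The protein end is thus the same from each gene while the messages differ.

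Of the 94 members, 84 were detected, that is at 1 TPM or more in every library, against 45.9% of all protein-coding genes. They were 43 of 44 in complex I, 4 of 4 in complex II, 8 of 8 in complex III, 12 of 20 in complex IV and 17 of 18 in complex V. The median level was 164.5 TPM over all members and 179 TPM over the detected ones, against 20.1 TPM over detected protein-coding genes. In bulk RNA, fewer cells of a type and less RNA per cell cannot be told apart.

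Levels differed by complex. The median of the members' mean TPM was 135 in complex I, 189.7 in complex II, 251 in complex III, 160.4 in complex IV (263 over its 12 detected members) and 291 in complex V. The assembly factors of complex I stood lowest, with a median of 27.4 TPM. Among the 84 detected members the order of levels was alike between libraries, with Spearman's rho of 0.974 between libraries 1 and 2, 0.960 between 1 and 3 and 0.973 between 2 and 3. These are correlations across genes, which are not independent replicates and share length and annotation between libraries.

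**Figure D1:**
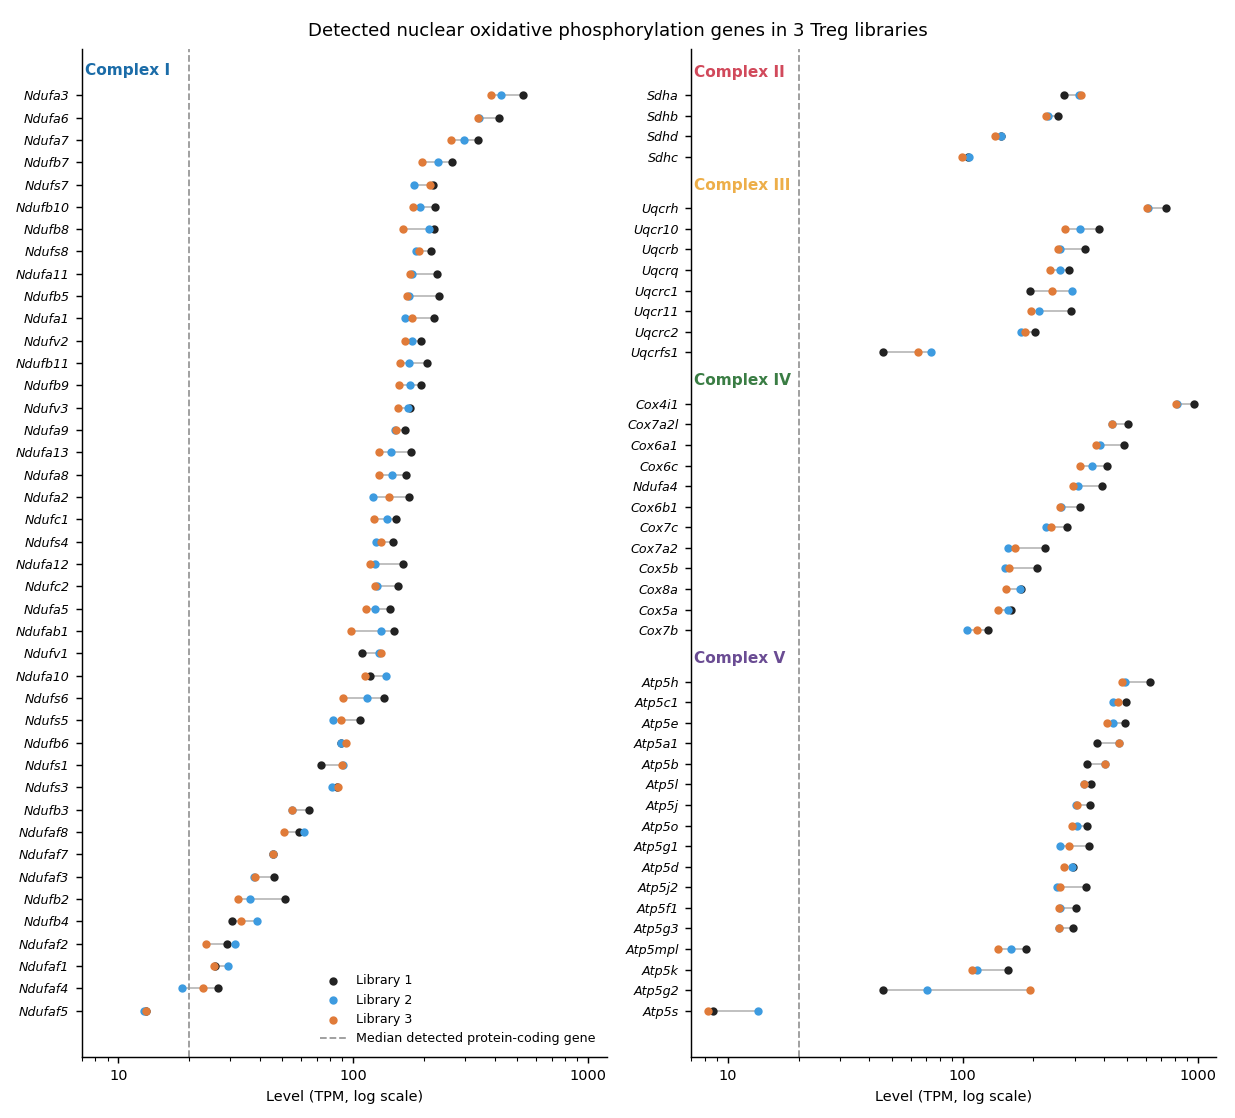
Level of the detected members, 1 of them not drawn, in TPM (log scale) in libraries 1, 2 and 3 (black, blue and orange points), joined by a grey line and ordered by mean level within each complex. The dashed line is the median of detected protein-coding genes, 20.1 TPM. Nearly all subunits lie to its right, Atp5g2 has the widest spread among the high members, and Atp5s and Ndufaf5 lie to its left.

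In complex I, which takes electrons from NADH, the 3 highest members were accessory subunits, which surround the catalytic core. Ndufa3 had 529, 424 and 387 TPM in libraries 1, 2 and 3, Ndufa6 had 416, 342 and 339.7, and Ndufa7 had 340.3, 297 and 261. All 3 were highest in library 1, and libraries 2 and 3 lay close together for Ndufa6 alone. The 7 nuclear core subunits were lower, with a median of 123 TPM. Ndufv1, which holds the flavin where NADH is oxidised, had 109, 129 and 131 TPM, lowest in library 1 on this scale. The iron-sulphur subunits that carry electrons onward ranged from Ndufs1, with 73.2, 90.3 and 89.5 TPM, to Ndufs7, with 218, 182 and 212 TPM. Ndufs8 had 214, 185 and 191 TPM and Ndufv2 had 195, 178 and 165.5 TPM, both highest in library 1. Ndufs3, a core subunit of the quinone module, had 85.4, 81.4 and 86.1 TPM.

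The assembly factors, which help build complex I and then leave it, ran from Ndufaf8 at 57.2 ± 5.49 TPM (mean ± SD over 3 libraries, as throughout) down to Ndufaf5 at 13.1 ± 0.131 TPM. Ndufaf7, a methyltransferase that acts on a core subunit, had 45.8, 45.4 and 45.5 TPM, nearly the same level in each library. Ndufaf6 was the member of complex I that was not detected, with 0.36, 4.65 and 4.16 TPM from 2, 22 and 14 counts.

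Complex II, which oxidises succinate and is the complex with no mitochondrially encoded subunit, was led by the flavoprotein Sdha with 269.6, 311 and 319 TPM. Its iron-sulphur partner Sdhb had 254, 231 and 226 TPM. The membrane anchors Sdhc, with 105, 106 and 99.0 TPM, and Sdhd, with 145, 145 and 137 TPM, were lower in every library. By TPM Sdha was lowest in library 1 and Sdhb highest there, while by counts scaled to the library totals Sdha was also highest in library 1, with 4608, 4131 and 4189.

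In complex III, which passes electrons from quinol to cytochrome c, the hinge subunit Uqcrh had 730.4, 615 and 610.4 TPM, and the small subunits Uqcr10 and Uqcrb had 381, 316 and 272 TPM and 331, 259 and 255 TPM. The lowest member was the Rieske iron-sulphur protein Uqcrfs1, the catalytic member of this list, with 45.6, 73.5 and 64.3 TPM. Uqcrc1, a large core protein that faces the matrix, had 194, 292 and 240.3 TPM. Uqcrfs1 and Uqcrc1 were lowest in library 1, unlike the other 6 members.

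In complex IV, which hands the electrons to oxygen, Cox4i1 (ENSMUSG00000031818.12, mm10 chromosome 8, 120668222 to 120674207, plus strand) was the highest of all members, with 969, 820.0 and 811 TPM. Cox7a2l, which joins complexes III and IV in supercomplexes, had 506, 430.0 and 433 TPM, and Cox6a1 had 488, 384 and 368 TPM. All 3 were highest in library 1, and the lowest detected member, Cox7b, had 128, 104 and 116 TPM.

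In complex V the highest members were the peripheral stalk subunit Atp5h, with 626, 491 and 477 TPM, and the central stalk subunits Atp5c1, with 494, 437 and 459 TPM, and Atp5e, with 492, 436 and 411 TPM. The catalytic head is made of alpha and beta subunits: Atp5a1 had 372, 460.3 and 462 TPM and Atp5b had 338, 404 and 404 TPM, both lowest in library 1 by TPM. Atp5d, the remaining subunit of the central stalk, had 294, 292 and 271 TPM. Atp5s stood lowest of the detected members, with 8.68, 13.5 and 8.25 TPM.

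For most subunits of complex IV that exist as paralogs, 1 gene was high and the others near 0. Cox4i1 averaged 867 ± 88.9 TPM, against 0.183 ± 0.159 for Cox4i2, the form known from lung and hypoxic cells, whose protein is 50% identical to it. The form of heart and muscle Cox6a2 had 0.0833 ± 0.144 TPM, beside 413 ± 65.1 for the widely expressed Cox6a1. Cox6b2, known from testis, had 3.84, 0.65 and 1.03 TPM from 9, 1 and 2 counts, beside 279 ± 32.0 for Cox6b1. Cox7a1, the muscle form, had 0.97, 1.34 and 2.24 TPM from 2, 2 and 3 counts, beside 182 ± 36.3 for Cox7a2 and 456 ± 42.9 for Cox7a2l.

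Besides the second Atp5o identifier, 4 members had no count in any library: Cox7b2, Cox8b, Cox8c and Ndufa4l2. A count of 0 allows up to 3 counts, or 0.323, 0.326 and 0.362 CPM (counts scaled to a common total) in libraries 1, 2 and 3. Their partners stood at 116 ± 11.95 TPM (Cox7b), 169 ± 13.9 (Cox8a) and 332 ± 50.7 (Ndufa4). Cox8b is the muscle form of Cox8, and Ndufa4l2 is known as a gene induced in hypoxia. The absence of counts for Cox8b went with the muscle markers Myh7 and Acta1 at 0.

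Subunit c differed from complex IV, since all 3 of its genes were expressed. Atp5g1 had 344.5, 259 and 284.5 TPM and Atp5g3 had 295, 256 and 257 TPM, with means of 296 ± 43.9 and 269 ± 22.3 TPM. Atp5g1 was the higher in each library, by little in library 2, and the ranges of both genes over the libraries overlapped. Atp5g2 had 45.7, 70.65 and 193 TPM and was the most variable of the high members.

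**Figure D2:**
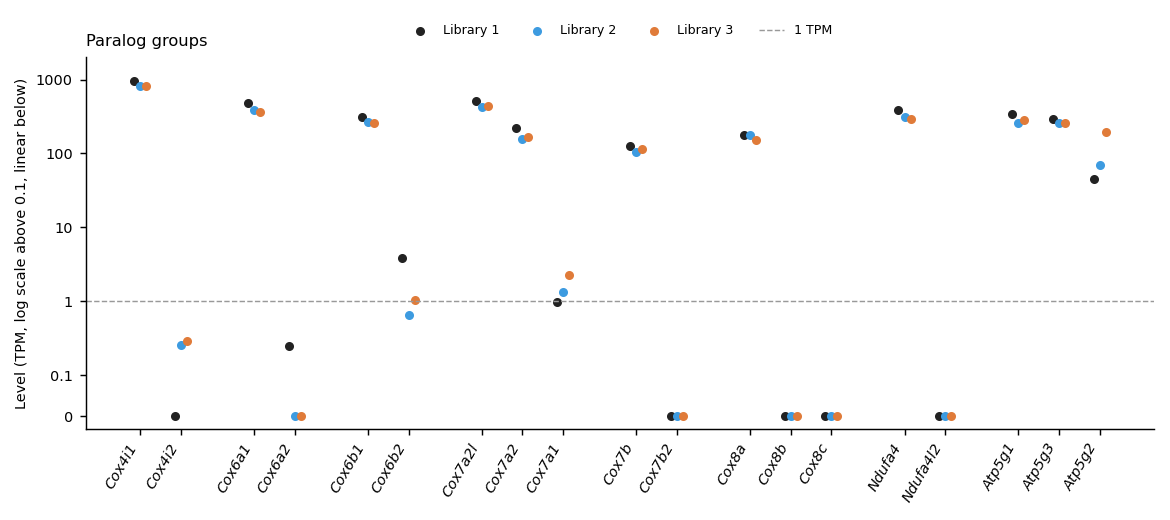
Level in TPM of the members of each paralog group in libraries 1, 2 and 3 (log scale above 0.1 TPM, linear below). The dashed line marks 1 TPM. In the Cox4i, Cox6a, Cox6b, Cox7b, Cox8 and Ndufa4 groups 1 gene stands above 100 TPM and the others at or near 0, while Cox7a has 2 high genes and Atp5g has 3.

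The members made up 1.03% of library 1, 0.837% of library 2 and 0.817% of library 3 by counts, with 95% Wilson intervals of 1.02% to 1.04%, 0.831% to 0.843% and 0.810% to 0.823% that cover counting error only. The share of library 1 was 1.25 times the mean of libraries 2 and 3, and the interval of library 1 did not meet the other 2. Complex V took 0.297% ± 0.0269 and complex I 0.268% ± 0.0458 of the counts. Complex IV took 0.144% ± 0.0294, complex III 0.0994% ± 0.0106 and complex II 0.0857% ± 0.00547. The 13 mitochondrially encoded subunits summed to 2.52, 2.55 and 2.38 times the TPM of all nuclear members in libraries 1, 2 and 3, so that this ratio moved little while both sums were highest in library 1.

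Each gene with 30 or more counts was tested for a difference between the 3 libraries by a chi-square test against TMM-scaled totals, with Benjamini-Hochberg adjustment over all 13071 genes. The test compares these libraries, not conditions, and its p-values measure only their spread, which per the labels is technical. Of 85 members tested, 80 differed at an adjusted p under 0.05, against 54.5% of all genes. Only 2 of 85, Atp5g2 and Ndufaf6, differed by 2-fold or more, against 8.79%. Most differences were thus under 2-fold. Without library 1 the count that differed was 5, and the count past 2-fold was 1 without library 1, 1 without library 2 and 0 without library 3.

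The differences ran mostly 1 way. The scaled count was highest in library 1 for 80 of 85 members, against 39.8% of all genes, and 76 of the 80 that differed were highest there. The median log2 ratio of library 1 to the mean of libraries 2 and 3 was 0.55 over members and -0.01 over all genes. By complex this median was 0.55 in complex I, 0.36 in complex II, 0.54 in complex III, 0.60 in complex IV and 0.53 in complex V. The deposited TPM are scaled otherwise, with a median of -0.30 over detected genes, and 66 of 84 detected members were highest in library 1 by TPM, against 18.2%. Their median log2 ratio by TPM was 0.23. The 13 members whose TPM was lower in library 1 than the mean of libraries 2 and 3 included catalytic subunits of 4 complexes: Ndufs1, Ndufv1, Sdha, Uqcrfs1, Atp5a1 and Atp5b. Of these, Ndufs1, Ndufv1, Sdha and Atp5b were highest in library 1 by scaled count, so their direction turned with the scaling.

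With libraries 2 and 3 alone, 5 of 85 members differed, against 17.2% of all genes. They were Ndufb8, with 210.0 and 163 TPM, Ndufs7, Uqcrc1, Atp5b and Atp5g2. The log2 ratio of library 2 to library 3 was 0.27 for Uqcrc1 (adjusted p = 1.73e-09) and -1.08 for Atp5g2 (adjusted p = 5.96e-17) in that chi-square test. Without library 2, which stood apart by its erythroid markers, the median log2 ratio of library 1 over members was 0.58, and without library 3 it was 0.57. The summed markers did not run 1 way. Those of erythroid cells, plasma cells and neutrophils were highest in library 1, with erythroid sums of 1685 TPM there and 1497 in library 3. Those of B cells, macrophages and CD8 T cells were highest in library 3, and those of regulatory T cells and T cells in library 2. Their part in the levels of the members was not tested.

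Among members with 300 or more counts, the 10 widest spreads had a highest scaled count of 1.71 to 2.41 times the lowest. Apart from Atp5g2 they were all highest in library 1. Ndufs6, a zinc-binding subunit of complex I, had 136, 114 and 90.3 TPM and a log2 ratio of 0.74 (adjusted p = 3.00e-14). Uqcr11, a small subunit of complex III, had 289, 211 and 195 TPM and 0.84 (adjusted p = 1.08e-24). Atp5k, a small membrane subunit of complex V, had 155, 115 and 109 TPM and 0.80 (adjusted p = 2.01e-09), and Cox7a2 had 224, 156 and 167 TPM and 0.83 (adjusted p = 2.69e-24). The others were Ndufa2, Uqcr10, Ndufb2, Ndufc1 and Ndufa13, with log2 ratios of 0.69 to 0.76.

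At the other end, Atp5a1 had scaled counts within 1.04-fold of each other (adjusted p = 0.128). The other members that did not pass the test were Ndufb4 (adjusted p = 0.604), Ndufaf1, Ndufaf5 and Atp5s. The 4 that differed and were not highest in library 1 were Atp5g2, Ndufaf6, Uqcrc1 and Uqcrfs1. Uqcrfs1 had 441, 564 and 499.7 scaled counts, and its log2 ratio was -0.27 (adjusted p = 0.00131). Ndufaf6 had 2 counts in library 1, a ratio of 0.0977 to library 2 with an exact interval of 0.0111 to 0.397, and of 0.137 to library 3 with an interval of 0.0151 to 0.596. The other tables held more for Ndufaf6 in library 1, with 17, 46 and 38 counts in the second gene table and 1.78, 3.67 and 3.97 TPM in the second transcript table, again lowest in library 1.

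The ratio went with gene length. Members are short, with a median of 673 bases in the deposited table against 2041 for protein-coding genes, and the log2 ratio of library 1 fell with length, with Spearman's rho of -0.61 over 85 members and -0.49 over all genes tested, across genes. The 62 members under 1 kb had a median log2 ratio of 0.59, against 0.48 over 1705 genes of that length, and the 23 longer members 0.37, against -0.06 over 11351 genes. When libraries were scaled within 20 bins of length, 34 of 85 members differed, against 44.5% of all genes, and 52 of 85 were highest in library 1, against 37.8%. Their median log2 ratio was then 0.07. By that scaling 23 of the 34 were highest in library 1 and 11 were not. Ndufa13, at 1251 bases, had the highest ratio of the 10 widest by that scaling, with 0.39 (adjusted p = 4.91e-13), while Atp5k had 0.25 (adjusted p = 0.152).

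**Figure D3:**
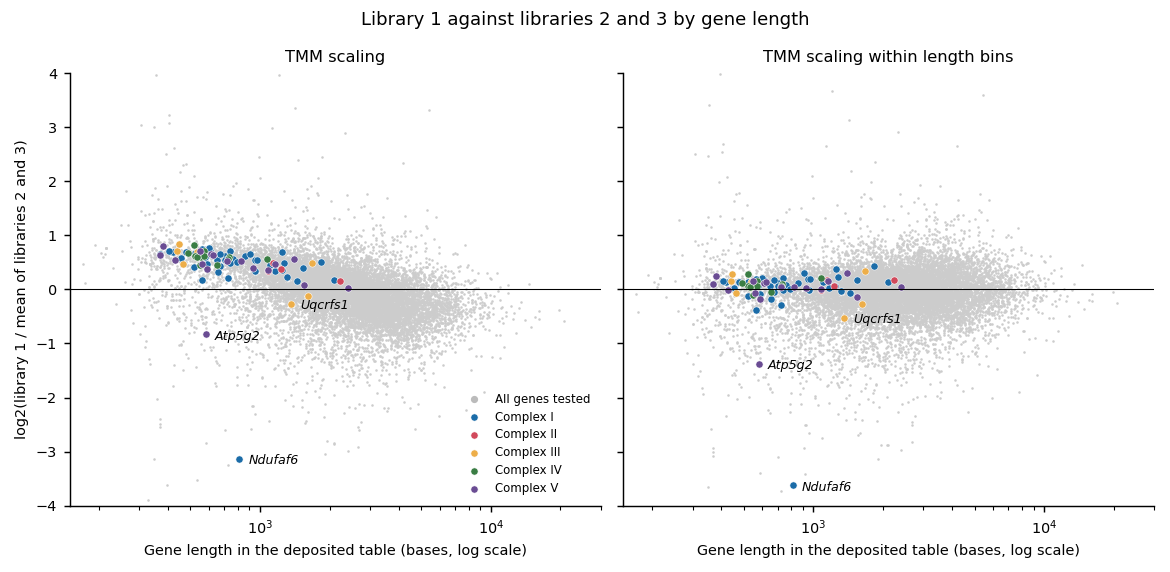
log2 ratio of scaled counts of library 1 to the mean of libraries 2 and 3 against gene length (log scale), for all genes tested (grey) and for the members coloured by complex, with scaling by all genes (left) and within 20 bins of length (right). The axis ends at 4, which leaves out 12 genes on the left and 14 on the right. Short members lie above 0 on the left and around 0 on the right, and Atp5g2, Ndufaf6 and Uqcrfs1 lie below 0 in both.

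The 13 mitochondrially encoded subunits had a median log2 ratio of 0.63 (0.22 within length bins), and 13 of 13 differed, against 54.5% of all genes. Each had its highest scaled count in library 1, as did 39.8% of all genes. High counts make small differences pass this test. By TPM 11 of the 13 were highest there, and mt-Co1 and mt-Co2 were highest in library 2. They were led by mt-Co3 at 10230.4 ± 1717 TPM, mt-Atp6 at 7400.5 ± 1365 and mt-Co1 at 7271 ± 333, and mt-Nd4l was lowest at 517 ± 45.7. Genes of mitochondrial ribosomal proteins and of cytosolic ribosomal proteins had medians of 0.48 and 0.62, and of 0.11 each within length bins.

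The mitochondrial carriers and channels listed and the inhibitor of the ATP synthase passed the test in 8 of 8 cases, against 54.5% of all genes. Each had its highest scaled count in library 1, against 39.8%. By TPM 4 of the 8 were highest there, and Slc25a4, Slc25a3, Ucp2 and Vdac1 were highest in library 2. Slc25a5, which exchanges ADP for ATP, had 1062 ± 37.0 TPM, the uncoupling protein family member Ucp2 had 1037 ± 28.8 and the outer membrane channel Vdac2 had 194 ± 6.30, down to Vdac1 at 79.1 ± 3.57. Cytochrome c (Cycs) and the cytochrome of complex III (Cyc1) had 24.4 ± 4.17 and 94.9 ± 5.38 TPM, and both differed, with their highest scaled count in library 1, though by TPM Cyc1 was highest in library 2. Of 31 further assembly factors all were detected and 17 differed, a share near the 54.5% of all genes. By scaled count 14 of the 17 were highest in library 1, and by TPM 10 of those 14. The median log2 ratio of the 31 was 0.25. They ran from the copper chaperone Cox17 at 158 ± 23.8 TPM, Cox20 at 121 ± 35.4 and Cox14 at 119 ± 16.6 to Sdhaf1 at 1.93 ± 0.140.

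Of 9 transcriptional regulators 8 were detected and 5 of 8 differed, against 54.5% of all genes, none of them with the highest scaled count in library 1. Their median log2 ratio was -0.18, and 0.02 within length bins. Nrf1 was highest at 78.2 ± 9.83 TPM, followed by Gabpb1 at 44.65 ± 5.37 and Sp1 at 14.5 ± 2.46. The coactivator Ppargc1a, known for driving mitochondrial biogenesis in muscle and brown fat, was not detected, with 0.06, 0.09 and 0 TPM. Of 11 genes that copy and express mitochondrial DNA all were detected and 9 differed, against the same 54.5%. By scaled count 5 of the 9 were highest in library 1, and by TPM 3 of those 5, and the median log2 ratio of the 11 was 0.04. Mterf3, a regulator of mitochondrial transcription, had 86.4 ± 2.54 TPM, Slirp 57.1 ± 9.03 and the packaging factor Tfam 56.6 ± 4.21, while Lrpprc, a partner of Slirp, had 6.30 ± 1.88.

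Subunit genes are known for processed pseudogenes, copies of the spliced transcript, which can take reads. The leading coding transcript of each member was cut into runs of 31 bases and searched in all other GENCODE M21 genes. In 24 members 20% or more of these runs were shared. Pairs of a member and another gene that shared 20% or more numbered 36. The other gene was a processed pseudogene in 27, a transcribed processed pseudogene in 3 and protein-coding in 6. Among the protein-coding ones, Donson, Gm42420, Gm49356 and each Atp5o identifier overlap the paired member at the same locus. These are not separate copies. Most copies held few counts. Pseudogenes with over 100 counts in library 1 were Gm10175 and Gm10231 for Atp5g2, Gm10221 for Atp5l (502, 305 and 282 counts), Ndufb4c for Ndufb4 (419.5, 284 and 265), Gm12338 for Cox7c (173, 111 and 89.3) and Gm15920 for Ndufa12 (180, 132 and 112). Ndufb4 itself had 30.4, 38.8 and 33.2 TPM, beside 241, 193 and 200.5 TPM for Ndufb4c.

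Atp5g2 (ENSMUSG00000062683.11, mm10 chromosome 15, 102662864 to 102672352, minus strand) was the extreme case. Its expected counts were 170.5, 209 and 393 in libraries 1, 2 and 3, so that library 3 was highest, while its copy Gm10175 on chromosome 7 held 2249, 1505 and 1218. All 31-base runs of the leading transcript Atp5g2-201 are also in Gm10175 and in Gm10231. The sum of Atp5g2 and both copies was 2534, 1776 and 1637 counts, highest in library 1 as for most other members.

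Other values gave Atp5g2 a smaller spread. The posterior mean counts of the same table, with their posterior SD, were 224 ± 79.1, 223 ± 47.5 and 307 ± 77.5, whose ranges overlap. The second gene table, made with the GENCODE M4 annotation, held 721, 531 and 523 counts, and the second transcript table gave 79.4, 72.4 and 87.2 TPM. The share of Atp5g2-201 in the gene's TPM was 28.0%, 40.3% and 76.8%, and that of the longer Atp5g2-202 was 58.4%, 51.0% and 20.5%.

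**Figure D4:**
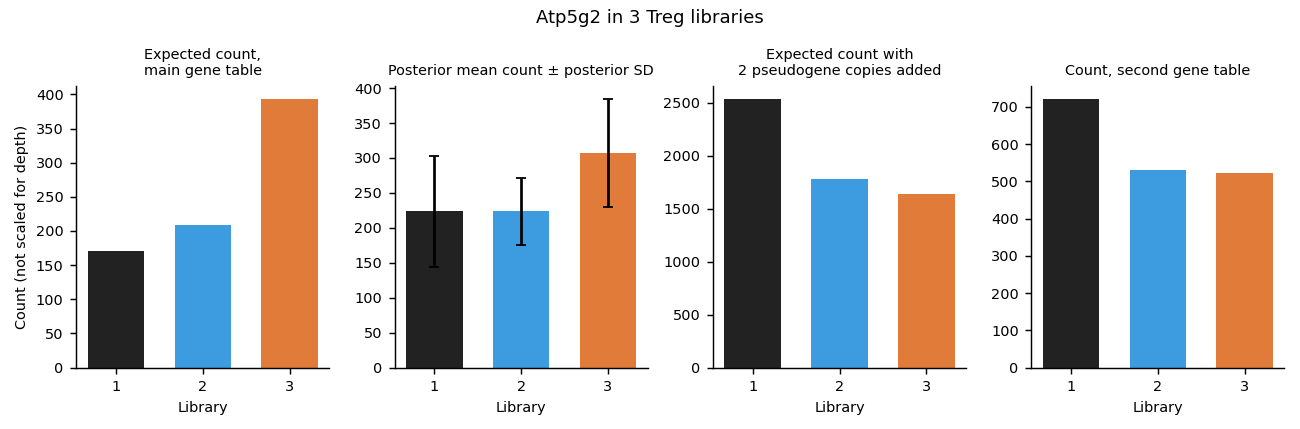
Counts of Atp5g2 in libraries 1, 2 and 3, not scaled for depth, from left to right by expected count, by posterior mean with posterior SD (error bars), by expected count with the copies Gm10175 and Gm10231 added, and in the second gene table. Library 3 is highest in the expected counts (393) and library 1 in the summed counts (2534) and in the second gene table (721).

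Levels were also set beside the other tables. By the counts of the second gene table, 7 of 84 members differed from the main table by over 2-fold in the same direction in every library, after centring on all genes, against 13.8% of genes. Of these 2 were below, against 12.6% of genes: Cox7a2l with log2 ratios of -1.90, -1.77 and -1.73 (1191, 932 and 895 counts there, against 3677, 2659 and 2416 expected counts) and Atp5l with -1.20, -1.43 and -1.23. The 5 above were Ndufa2, Ndufa3, Ndufa5, Ndufa13 and Atp5k, with log2 ratios of 1.01 to 1.63. In all, 75 of 84 members had a higher share in the second gene table after centring, against 5010 of 10091 genes. Their median log2 ratio was 0.63. Under 1 kb, 57 of 61 members were higher there, against 706 of 945 genes of that length. The medians of these short members and genes were 0.67 and 0.43.

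The second transcript table differed by over 2-fold for 3 of 84 members, against 3.64% of genes, all of them above: Cox7b by 1.60 to 1.80, Atp5k by 1.31 to 1.46 and Cox7c by 1.03 to 1.07 on the log2 scale. Atp5k was above in both tables, with 155, 115 and 109 TPM in the main table, against 203, 182 and 167 TPM in the second transcript table before centring. The median log2 ratio of all 84 members was 0.29, against 0.002 over all genes. Over the 61 members under 1 kb it was 0.47, against 0.38 over 1829 genes under 1 kb.

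The transcripts behind these levels were mostly, but not always, coding. Over 84 detected members the median share of coding transcripts in the gene's TPM was 95.7%, against 86.5% over detected protein-coding genes. In 24 members (28.6%) it was under 80%, against 40.9% of detected protein-coding genes, and 14 members (16.7%) were led by a transcript annotated as non-coding, against 13.5%. Of these leading transcripts 6 were retained introns, 5 processed transcripts and 3 targets of nonsense-mediated decay, the pathway that removes messages with an early stop.

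Ndufa3, the highest member of complex I, was led by Ndufa3-204, a nonsense-mediated decay transcript of 343 bases, at 90.2%, 89.0% and 88.7% of its TPM in libraries 1, 2 and 3, and 88.4% on average in the second transcript table. Its coding transcripts held 6.27% ± 0.50. In Ndufa5 coding transcripts held 2.17% ± 0.671 in the first transcript table and 12.5% ± 1.27 in the second, and the processed transcript Ndufa5-204 held 63.8%, 79.7% and 97.4%. For the ATP synthase stalk subunits Atp5j and Atp5f1, coding transcripts held 11.8% ± 1.26 and 32.1% ± 3.34. The retained-intron transcript Atp5j-208 led Atp5j with 84.3%, and the decay target Atp5f1-203 led Atp5f1 with 65.3%.

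For most members the pattern was alike in both transcript tables. In the second one 27 members were under 80% and 13 were led by a non-coding transcript. Of these, 12 were led by a non-coding transcript in both tables, 11 of them by the same one. Some members differed more between tables. Cox7b had 42.3% ± 2.71 in coding transcripts in the first table and 13.5% ± 0.816 in the second. Cox7c had 95.1% ± 4.90 and 58.1% ± 4.01, and Ndufs3 had 76.3% ± 4.24 and 49.6% ± 2.70. Ndufc1 went the other way, with 38.9% ± 3.20 and 57.6% ± 0.920.

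**Figure D5:**
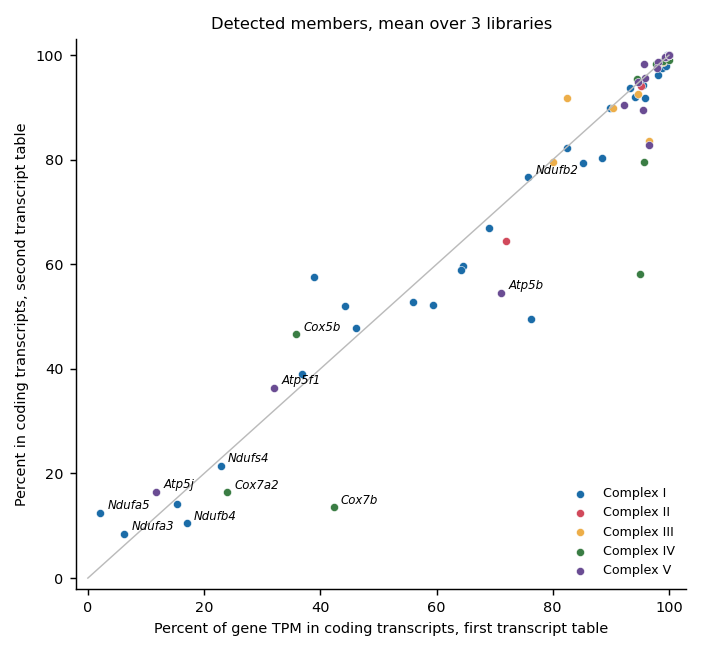
Percent of each detected member's TPM in coding transcripts, mean over 3 libraries, in the first transcript table (x axis) and in the second (y axis), with members coloured by complex and a grey line where both are equal. Most members lie near 100% in both, and Ndufa5, Ndufa3, Ndufa10, Ndufb4, Ndufs4, Cox7a2 and Atp5j lie under 25% in both.

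The members lie on 19 chromosomes, with Ndufa1, Ndufb11 and Cox7b on X. Of the 84 detected members, 27 (32.1%) had a gene on the other strand whose start lay within 1 kb upstream of their own, head to head, against 17.1% of detected protein-coding genes. For 23 of them (27.4%, against 11.6%) that neighbour was protein-coding. None of these neighbours was itself a member. The starts of Ndufa7 and the ribosomal gene Rps28 were 10 bases apart, with 299 and 1274 TPM on average, and those of Sdhd and the import factor Timm8b 98 bases apart, with 142 and 70.4 TPM. In other pairs the neighbour was near 0: Ndufa8 stood at 148 TPM beside Morn5 at 0.1 TPM, and Uqcrq at 259 beside Gdf9 at 0.31.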

How the data were processed

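The 3 libraries of polyadenylated RNA from 1 biological sample were compared with each other, and no test between conditions was possible, so the planned edgeR quasi-likelihood contrast was not run. The members and gene lists were chosen with earlier results of these data known. The authors deposited, per the file headers, a gene table and a transcript table with expected counts, TPM, posterior mean counts with posterior SD and, for transcripts, percent of the gene's TPM, in columns named as RSEM writes them, on GENCODE M21 (mm10). They also deposited a second transcript table with estimated counts and TPM, in columns named as kallisto writes them, and a second gene table of whole-number counts on GENCODE M4. Neither the sources used here nor the headers give versions or the strand setting.

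Expected counts were rounded and scaled by TMM (edgeR 4.0.16, R 4.3.3). Each gene with 30 or more counts in sum was tested for equal scaled share in the 3 libraries by a chi-square test (SciPy 1.17.1) adjusted by Benjamini and Hochberg's method, at 0.05, and again with TMM within 20 bins of length. In data simulated from the same genes, libraries and scaling, with Poisson counting error only, the chi-square test called 5 of 12720 unchanged genes. It called 67 of 99 genes changed 1.5-fold and 79 of 100 changed 2-fold. The simulation held no further spread between libraries, so it gives no error rate for the real ones, where 54.5% of genes differed. Depth was 8284381 to 9299054 counts per library. Named were the 3 highest members and the lowest of each complex, core members, members of paralog groups, the 10 widest spreads among members with 300 or more counts, undetected members, members over 2-fold apart between tables, and the 3 highest genes and the lowest of each other list. The values of 1 core member are not reported here. Other genes named were chosen after their values were seen. Proteins were translated from GENCODE M21 coding sequences. Promoters came from RefSeq (GRCm38.p6). Alternatives were another normalization (DESeq2 1.42.0), other filters, length bins, the other tables and leaving out each library.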

Additional observations from a re-analysis of the deposited data

How the results depend on the processing

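Of 90 alternative values for 16 results, 65 stayed within 1.5 times the count reported or within the spread of the value between libraries. Only the median log2 ratio could be labelled as reversed, and it was not in any setting. The call of 2 of 85 members tested stayed the same in every setting, and that of 30 in every setting that left out no library. Members that differed between libraries numbered 34 with scaling within length bins and 5 to 76 without 1 library, 5 being the count without library 1. Members past 2-fold numbered 1 with a minimum of 300 counts, 1 in the second gene table, 1 in the estimated counts of the second transcript table, 1 among members sharing under 20% of 31-base runs, and 0 to 1 without 1 library. Members highest in library 1 numbered 52 with length bins, 81 to 81 without library 2 or 3, and have no value without library 1. Their median log2 ratio was 0.075 with length bins, 0.61 in the second transcript table, and, chosen after seeing the data, 0.43 by total counts, 0.51 for members with little shared sequence and 0.23 by TPM, and 0.57 to 0.58 without library 3 or 2. By the TPM of the second transcript table, not centred, the medians of complexes I, II, III and V were 91.9, 99.0, 214 and 186. Complex III thus stood above complex V there, unlike in the main table. Over all genes the median log2 ratio of that table to the main one was -0.92, -0.79 and -0.80 in libraries 1, 2 and 3. In the main table complex IV had 263 over detected members only. The members' share of counts was 1.51% in the second gene table and 0.827% to 0.933% without 1 library. At 1.5-fold, 46 members differed in the second gene table and 15 in the second transcript table, against 7 to 8 and 3 to 3 at 2-fold without 1 library. No share of all genes is set beside the counts at 1.5-fold, so they are not read as particular to members. All genes under 1 kb had median log2 ratios of 0.43 and 0.38 in the same tables. The median coding share in the second transcript table was 94.6%. The cause of these shifts was not tested, and the scaling within length bins is a description only. No paired analysis was possible because the libraries form 1 group. Counts under 30 in sum were not tested, so depth limits what can be said of the undetected members.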
